A study of Mus musculus with 4 samples.

Results

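The genes described here encode the nuclear-encoded subunits of mitochondrial oxidative phosphorylation in mouse macrophages. Members were the mouse protein-coding genes whose NCBI gene identifier maps to a symbol beginning with Nduf (Ndufaf left out), Uqcr, Atp5 or Cox4 to Cox8, or to Sdha, Sdhb, Sdhc or Sdhd, and that were listed in at least 1 of the 4 deposited expression tables. The rule found 82 genes among 15935 listed: 38 of complex I, 4 of complex II, 8 of complex III, 15 of complex IV and 17 of complex V. Of the 88 genes that the rule names in RefSeq, Cox7b2, Cox8b, Cox8c, Ndufb1, Ndufb4b and Ndufb4c were listed in none of the tables. Of the 82 members, 79 reached 1 FPKM (fragments per kilobase of transcript, scaled to the depth of the library) in at least 1 library.

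Oxidative phosphorylation passes electrons from NADH through complex I (NADH dehydrogenase), and from succinate through complex II (succinate dehydrogenase), to coenzyme Q, complex III, cytochrome c and complex IV (cytochrome c oxidase). The proton gradient built on the way drives complex V, the ATP synthase. Most subunits are encoded in the nucleus and imported, and a smaller set is encoded by mitochondrial DNA. That set was searched for by 26 symbols, which name each gene in more than one style, and 0 were listed in the tables. Macrophages that meet bacterial lipopolysaccharide (LPS) are known for a shift of energy metabolism towards glycolysis, and succinate dehydrogenase is known for its part in their inflammatory response.

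RNA came from bone marrow-derived macrophages of adult C57BL/6 mice, from marrow of femur and tibia cultured for 5 days in DMEM with M-CSF conditional medium. The mice were wild type (WT) or EZH2-/- (ezh2f/f lysmcre, here KO). In the KO mice the lysozyme M promoter drives Cre in myeloid cells, which removes a floxed part of Ezh2, a histone methyltransferase of the Polycomb group. Macrophages of both genotypes were kept without LPS (NT) or given it for 2 h, a design that compares the LPS response and the effect of the deletion. With 1 library per group there are no replicates and no test of the conditions is possible. Each interval below is an exact 95% Clopper-Pearson interval of an FPKM ratio, which covers counting error only, and PCR reads are not independent molecules.

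The WT libraries held 5678451 (NT) and 5635004 (LPS) expected counts, and the KO libraries 5668826 and 5237782. Ezh2 had 2.84 FPKM untreated and 2.52 with LPS in WT, and 2.06 and 1.29 FPKM in KO, from 43, 38, 31 and 18 counts. Its KO to WT ratio was 0.725 (0.442 to 1.18) in the NT state and 0.512 (0.275 to 0.919) with LPS, on a gene-level count that does not separate the floxed exons. All 10 macrophage markers examined were present in every library, with summed levels of 5606 to 6013 FPKM. Summed neutrophil and precursor markers (14 genes) reached 406 and 438 FPKM in the WT libraries and 683 and 603 FPKM in the KO libraries, each time NT first. Fibroblast markers (8 genes) summed to 8.04 and 9 FPKM in WT and 4.74 and 4.83 FPKM in KO, with 2 of them at 0 in KO NT and 1 in KO LPS. The 7 listed lymphocyte markers, 1 of which reached 1 FPKM, summed to 9.48 and 6.6 FPKM in WT and 15.3 and 10.45 FPKM in KO. Of these, 1 was at 0 in WT LPS and 3 in KO LPS.

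The subunit genes were abundant in every library, and the order of their levels was nearly the same in all 4. Their median level was 71.05 FPKM untreated and 53.3 with LPS in WT, and 68.6 and 52.3 FPKM in KO. They made up 1.54%, 1.23%, 1.57% and 1.24% of the summed FPKM in the same order. Of the 82, 78 reached 5 FPKM in all 4 libraries. Over these 78 genes, which share their annotation between libraries, Spearman's rho of FPKM was 0.978 between the NT libraries of the genotypes and 0.972 between WT NT and WT LPS. The transcripts are short, with a median length of 697 bases against 2676 bases over all genes of at least 1 FPKM.

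Levels differed between the complexes. In WT NT the median was highest for complex IV (124 FPKM) and complex V (109 FPKM), followed by complex II (86.8 FPKM) and complex III (85.5 FPKM), and lowest for complex I (47.1 FPKM). Complexes II and III, neighbours in that order, differed by far less than their members, which ran from 40.7 FPKM for Uqcrfs1 to 116 FPKM for Uqcrq in complex III alone. Atp5b, the catalytic beta subunit of ATP synthase, was the highest member of all, with 321 FPKM untreated and 293 with LPS in WT, and 289 and 282 FPKM in KO. Cox4i1, the ubiquitous form of complex IV subunit 4, led complex IV with 258 FPKM untreated and 219 with LPS in WT, and 246 and 211 FPKM in KO. Among genes with complex I symbols the highest in each library was Ndufa4, a protein first assigned to complex I and later placed with complex IV, with 127 FPKM untreated and 118 with LPS in WT, and 132 and 117 FPKM in KO.

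Where a subunit has tissue-specific isoforms, the ubiquitous form had by far the higher level. Cox6a1, the form found in most tissues, had 222 FPKM in WT NT, against 15.9 FPKM for Cox6a2, the form known from heart and skeletal muscle. Cox7a2, the general form of subunit 7a, had 66.4 FPKM and its muscle form Cox7a1 1.94 FPKM, from 4 counts. The testis form Cox6b2, the lung-enriched form Cox4i2 and Ndufa4l2, a relative of Ndufa4 induced by hypoxia, each had at most 2 counts in any library, below the 3 counts that a count of 0 allows. Cox6a2 was the best detected of these tissue-specific forms, with 59 counts in WT NT.

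**Figure D1:**
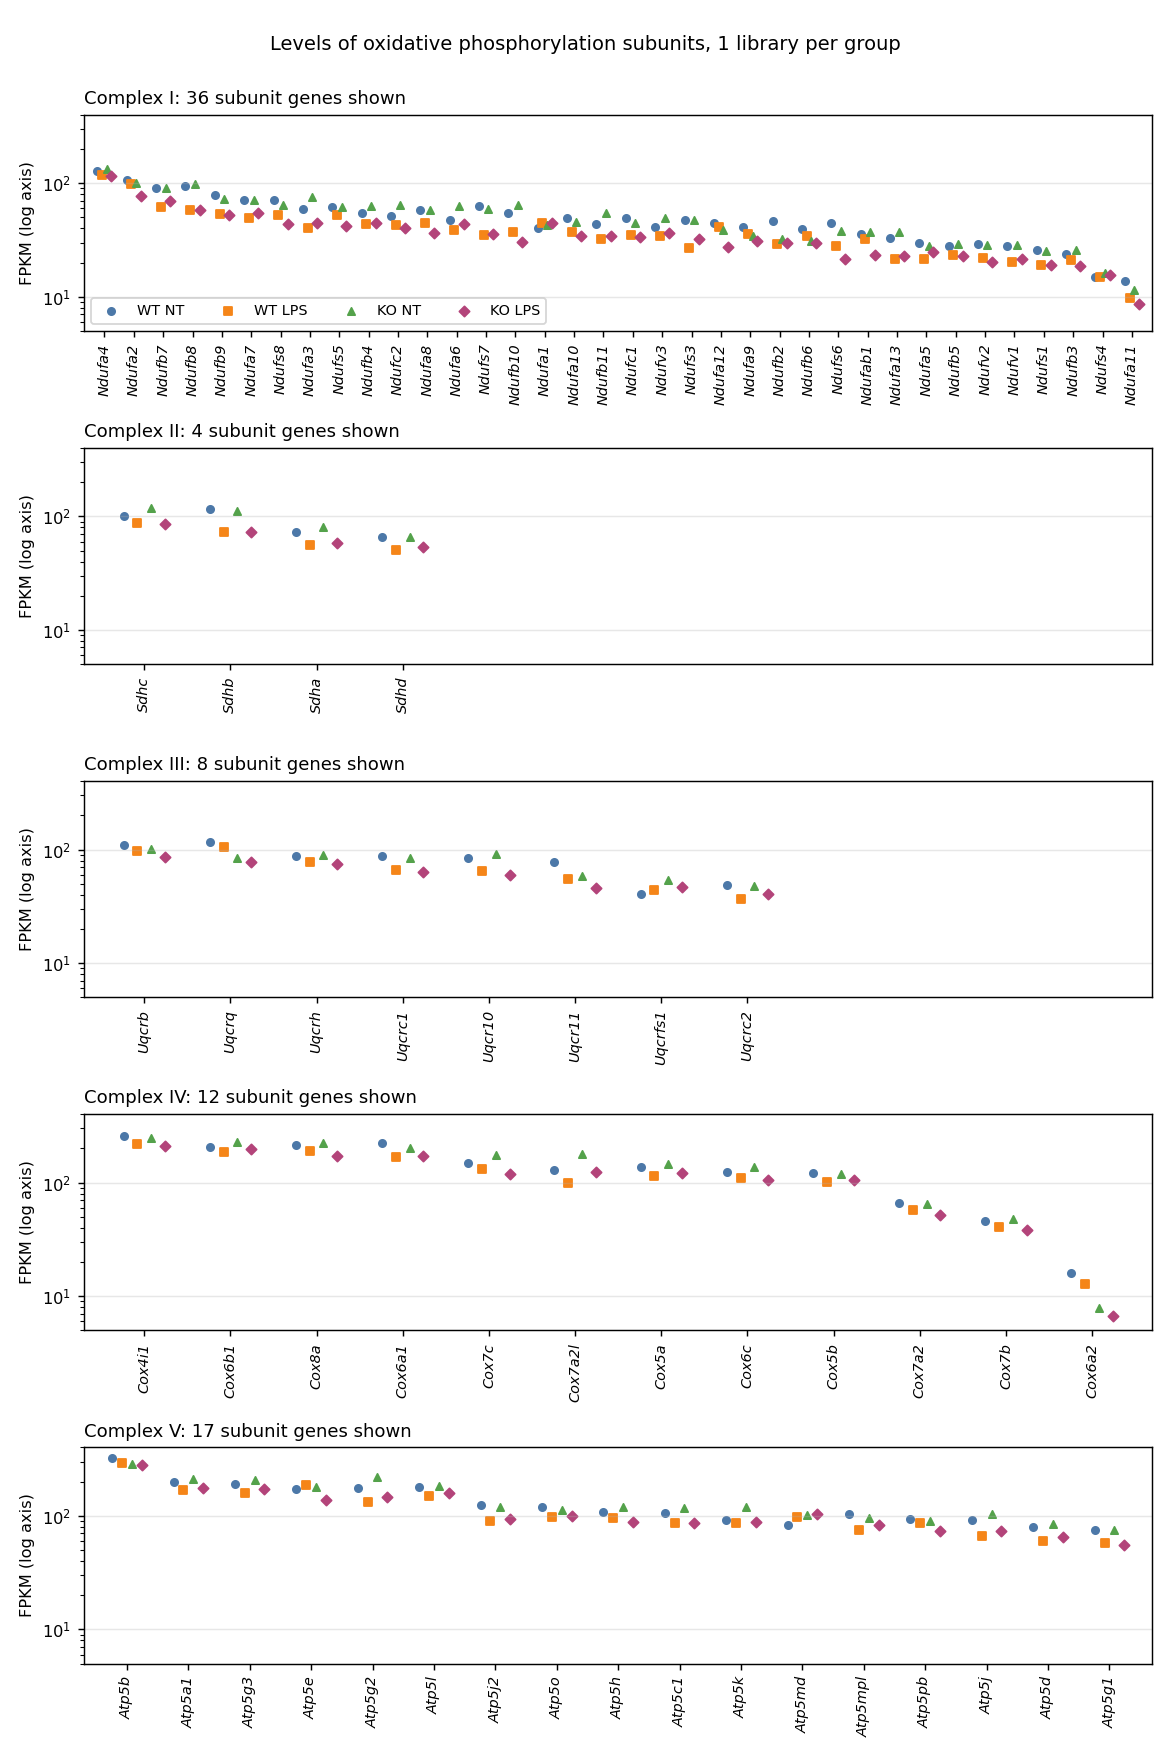
Deposited FPKM (log axis) of 77 of the 78 subunit genes of at least 5 FPKM in all 4 libraries, by complex and ordered by mean level, with 1 point per library. Most genes show the LPS libraries (orange squares, purple diamonds) below the untreated ones, and Cox6a2 in complex IV shows the KO libraries (7.84 and 6.73 FPKM) below the WT libraries (15.9 and 12.8 FPKM).

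After 2 h of LPS most subunit genes took a slightly smaller share of the reads than before, and no measured member differed 2-fold in WT. There, 0 of 79 were higher by 2-fold or more and 0 were lower by as much, against 6.41% and 17.2% of the 10972 genes measured. Below their NT value were 74 members (78.3% of all genes), and above it 5 (21.7%). For 46 members the interval lay below 1 (60.4% of all genes), and for 0 above 1 (13.4%). Of the 8947 genes of at least 50 counts in either library, 5886 had intervals below 1 and 1330 above. The shares of all genes given here and below also cover genes of fewer counts, whose intervals are wider. The median fold, as log2 of (FPKM + 1) over (FPKM + 1), was -0.28 for the members and -0.46 for all genes.

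In KO macrophages 1 of 79 members was lower by 2-fold or more (15.1% of 11069 genes) and 0 were higher (6.61%). Here 77 were below their NT value (76.6% of all genes) and 2 above it (23.4%). The interval lay below 1 for 60 members (57.1% of all genes) and above 1 for 0 (14.5%). Of the 9029 genes of at least 50 counts in either KO library, 5651 had intervals below 1 and 1444 above. The members' median was -0.39 and that of all genes -0.42. In both genotypes, whose comparisons share no library, the interval lay below 1 for 39 members, or 49.4% of the 79, a share close to the 51.5% of all genes. These 39 are 84.8% of the 46 in WT and 65% of the 60 in KO, where the same shares over all genes are 84.4% and 88.7%. It lay above 1 in both for 0 members and for 11.9% of all genes.

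FPKM is a share of each library, and the direction of these small differences depended on the scaling. Dividing each library by its median ratio to the others brought the median of all genes from -0.46 to -0.032 in WT and from -0.42 to -0.032 in KO. The members' median then became 0.19 in WT and 0.026 in KO. In WT 64 members were now above and 15 below 0 (5153 and 5819 of all genes), and in KO 47 above and 32 below (5197 and 5872 of all genes). Intervals lay above 1 for 29 members in WT and 15 in KO (29.2% and 28.6% of all genes), and below 1 for 2 and 3 (29.7% and 27.9%). Under either scaling the members' median lay above that of all genes. Whether a lower level in bulk RNA comes from fewer cells of a type or from less RNA per cell cannot be told apart.

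The fold with LPS also varied with level. Over all genes the WT median was -0.56 for those averaging 5 to 20 FPKM, -0.30 for 20 to 100 FPKM and -0.15 for at least 100 FPKM. The 56 members of 20 to 100 FPKM had a median of -0.37 in WT and -0.41 in KO, below the -0.30 and -0.26 of the 2732 genes of that level. The 19 members of at least 100 FPKM had -0.25 in both genotypes, against -0.15 and -0.20 for 729 genes. Beside genes of their own level, members of these groups were thus on the lower side, whereas their median was above that of all genes. The 3 members of 5 to 20 FPKM had -0.30 in WT and -0.19 in KO, above the -0.56 and -0.51 of 4104 genes of that level. Among genes shorter than 1000 bases the medians of members and of all genes were -0.27 and -0.29 in WT and -0.39 and -0.35 in KO. Among those of at least 1000 bases they were -0.37 and -0.48 in WT and -0.39 and -0.43 in KO.

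Complex I, whose core subunits carry the flavin and the iron-sulfur clusters that take electrons from NADH, held the lowest single values. Its median fold with LPS was -0.40 in WT and -0.44 in KO (0.062 and -0.034 after median-ratio scaling). The interval lay below 1 for 21 of 37 measured complex I genes in WT and 29 of 37 in KO, beside 60.4% and 57.1% of all genes. Of the 7 members at least 1.5-fold lower in WT (40.6% of all genes), 6 were of complex I, and of the 12 in KO (37.3%), 10 were. Complex I held 37 of the 79 measured members and had the lowest median level. The part of level in these counts was not tested. All 7 core catalytic genes had intervals below 1 in both genotypes as deposited, with medians of -0.43 and -0.48 (0.038 and -0.067 after median-ratio scaling). With that scaling the interval lay below 1 for 2 of them in WT and 1 in KO (29.7% and 27.9% of all genes). It lay above 1 for 1 and 0 (29.2% and 28.6%). The grouping by role was made after the values were seen.

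Ndufs7 (chr10:80249105-80256794, GRCm38.p6), which holds the last iron-sulfur cluster before coenzyme Q, had 62.6 FPKM untreated and 35 with LPS in WT, and 59.4 and 35.6 FPKM in KO. Both LPS libraries were below both untreated libraries. The LPS to NT ratio was 0.56 (0.454 to 0.688) in WT and 0.6 (0.484 to 0.743) in KO. After median-ratio scaling the Ndufs7 ratio was 0.78 (0.632 to 0.959) in WT and 0.807 (0.65 to 0.9988) in KO, below 1 under either scaling.

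Ndufs3 (chr2:90894627-90904721), a core subunit of the peripheral arm, had 47.5 FPKM untreated and 26.8 with LPS in WT, and 47.8 and 32 FPKM in KO. The NT levels of Ndufs3 in the genotypes differed by less than counting error. Its LPS to NT ratio was 0.564 (0.455 to 0.698) in WT and 0.669 (0.544 to 0.822) in KO, and after median-ratio scaling 0.787 (0.634 to 0.972) and 0.9 (0.732 to 1.11). Of the other core subunits, Ndufs1, which holds several iron-sulfur clusters, had ratios of 0.751 (0.645 to 0.873) and 0.742 (0.634 to 0.866). Ndufv1, the flavin-binding NADH site, had 0.719 (0.591 to 0.873) and 0.752 (0.619 to 0.913).

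Ndufb8, an accessory subunit of the membrane arm, had 94.5 FPKM untreated and 58.3 with LPS in WT, and 97.5 and 58.4 FPKM in KO. The genotypes had nearly the same values of Ndufb8 in each state, with LPS to NT ratios of 0.616 (0.515 to 0.737) in WT and 0.599 (0.498 to 0.717) in KO. After median-ratio scaling they were 0.859 (0.717 to 1.03) in WT, where the interval held 1, and 0.805 (0.67 to 0.965) in KO. Ndufb10 (chr17:24722060-24724423), another accessory subunit of that arm, was the 1 member past 2-fold in KO. It had 54.7 FPKM untreated and 36.8 with LPS in WT, and 64 and 30.2 FPKM in KO, from 196, 131, 229 and 100 counts. KO NT was the highest and KO LPS the lowest of the 4 libraries. The ratio of Ndufb10 was 0.473 (0.37 to 0.6) in KO and 0.673 (0.535 to 0.844) in WT, and after median-ratio scaling 0.636 (0.498 to 0.808) and 0.938 (0.746 to 1.18).

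Next lowest in KO was Ndufs6, an accessory subunit of the peripheral arm, with 44.3 FPKM untreated and 28.2 with LPS in WT, and 37.9 and 21.3 FPKM in KO. Both LPS libraries were below both NT libraries, and the KO ratio of Ndufs6 was 0.563 (0.4 to 0.785), or 0.757 (0.538 to 1.06) after median-ratio scaling. Ndufa3, a small accessory subunit, had a KO ratio of 0.601 (0.447 to 0.803) and a WT ratio of 0.687 (0.503 to 0.934). After median-ratio scaling the Ndufa3 ratios were 0.809 (0.602 to 1.08) in KO and 0.957 (0.701 to 1.3) in WT. These scaled intervals of Ndufs6 and Ndufa3 all hold 1. At the other end, Ndufa1, a small membrane-arm subunit, had 40.1 FPKM untreated and 44.4 with LPS in WT, and 43 and 44.2 FPKM in KO. As deposited its ratios of 1.11 (0.849 to 1.44) in WT and 1.03 (0.787 to 1.34) in KO had intervals that hold 1, and after median-ratio scaling they were 1.54 (1.18 to 2.01) and 1.38 (1.06 to 1.8).

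**Figure D2:**
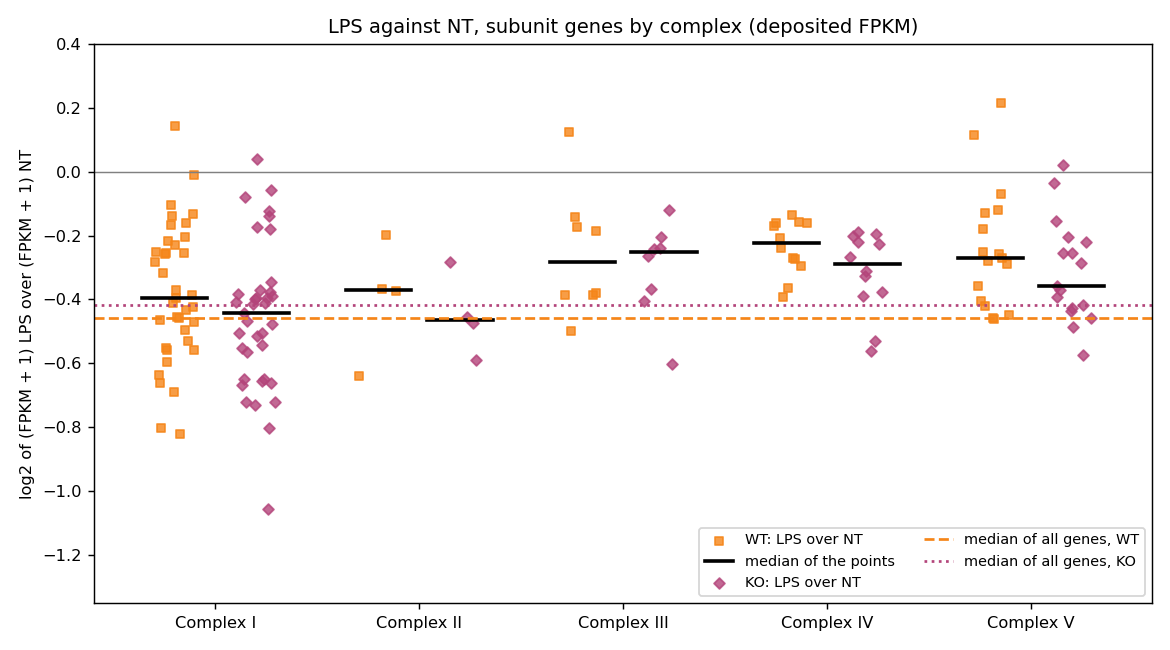
log2 of (FPKM + 1) with LPS over (FPKM + 1) without, as deposited, 1 point per subunit gene of at least 5 FPKM in all 4 libraries, WT as orange squares and KO as purple diamonds, with black bars for medians and dashed and dotted lines for the medians of all genes. Complex I reaches lowest in both genotypes (Ndufs7 at -0.82 in WT, Ndufb10 at -1.06 in KO), and complex IV in WT has the median closest to 0 (-0.21 over its 13 measured genes, 1 of which is too low to be plotted); after median-ratio scaling the WT medians of all 5 complexes are above 0.

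Complex II oxidises succinate in the tricarboxylic acid cycle. All 4 of its genes had intervals below 1 in both genotypes as deposited (60.4% and 57.1% of all genes). Their medians were -0.37 in WT and -0.46 in KO (0.10 and -0.042 after median-ratio scaling). With that scaling the interval lay below 1 for 0 of the 4 in either genotype (29.7% and 27.9% of all genes). It lay above 1 for 1 in WT and 0 in KO (29.2% and 28.6%). Sdhb, which carries the iron-sulfur clusters, had 115 FPKM untreated and 73.4 with LPS in WT, and 111 and 73.5 FPKM in KO. Its levels with LPS were nearly equal in the genotypes, and its LPS to NT ratios were 0.639 (0.566 to 0.721) in WT and 0.661 (0.584 to 0.749) in KO. Sdha, the flavoprotein that binds succinate, had 72.4 FPKM untreated and 55.9 with LPS in WT, and 80.8 and 57.9 FPKM in KO. The ratio of Sdha was 0.772 (0.707 to 0.842) in WT and 0.717 (0.657 to 0.781) in KO. Of the membrane anchors, Sdhc had ratios of 0.871 (0.778 to 0.975) and 0.727 (0.649 to 0.813), and Sdhd of 0.769 (0.669 to 0.883) and 0.819 (0.712 to 0.942). After median-ratio scaling Sdhc turned to 1.21 (1.08 to 1.36) in WT and had 0.977 (0.873 to 1.09) in KO.

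Complex III passes electrons from coenzyme Q to cytochrome c. Its median was -0.28 in WT and -0.25 in KO (0.19 and 0.17 after median-ratio scaling), with intervals below 1 for 4 of 8 genes in each genotype, where all genes had 60.4% and 57.1%. The large core proteins had similar ratios: Uqcrc1 0.762 (0.686 to 0.847) in WT and 0.752 (0.673 to 0.839) in KO, and Uqcrc2 0.763 (0.667 to 0.872) and 0.843 (0.737 to 0.963). Uqcrfs1, the Rieske iron-sulfur protein, had 40.7 FPKM untreated and 44.4 with LPS in WT, and 54.4 and 47.1 FPKM in KO. WT NT was its lowest library, and the LPS to NT ratios of 1.09 (0.93 to 1.28) and 0.866 (0.745 to 1.01) both had intervals that hold 1. After median-ratio scaling they were 1.52 (1.3 to 1.78) and 1.16 (1.002 to 1.35), above 1 in both genotypes.

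Complex IV, which reduces oxygen to water, had medians of -0.21 in WT and -0.31 in KO (0.26 and 0.11 after median-ratio scaling), and intervals below 1 for 5 and 10 of 13 measured genes, beside 60.4% and 57.1% of all genes. None of the 13 was 1.5-fold lower in either genotype. Cox4i1 had LPS to NT ratios of 0.848 (0.774 to 0.928) in WT and 0.858 (0.781 to 0.942) in KO, which turned to 1.18 (1.08 to 1.29) and 1.15 (1.05 to 1.27) after median-ratio scaling. Cox5a, a matrix-side subunit, had ratios of 0.827 (0.728 to 0.94) and 0.83 (0.731 to 0.942), and the zinc-binding Cox5b of 0.828 (0.712 to 0.963) and 0.876 (0.751 to 1.02). With median-ratio scaling Cox5a had 1.15 (1.01 to 1.31) and 1.12 (0.983 to 1.27), and Cox5b 1.15 (0.992 to 1.34) and 1.18 (1.01 to 1.37).

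Complex V makes ATP from the proton gradient. Its median was -0.27 in WT and -0.36 in KO (0.21 and 0.065 after median-ratio scaling), with intervals below 1 for 12 and 13 of 17 genes (60.4% and 57.1% of all genes). The alpha subunit gene Atp5a1 had 200.2 FPKM untreated and 167 with LPS in WT, and 212 and 177 FPKM in KO, with LPS to NT ratios of 0.836 (0.791 to 0.884) and 0.838 (0.793 to 0.886), which turned to 1.17 (1.1 to 1.23) and 1.13 (1.07 to 1.19) after median-ratio scaling. The beta subunit gene Atp5b, with up to 3414 counts the most precisely measured member, had ratios of 0.914 (0.87 to 0.959) in WT and 0.975 (0.926 to 1.03) in KO, or 1.27 (1.21 to 1.34) and 1.31 (1.25 to 1.38) after median-ratio scaling. All 3 genes for the c-ring, the rotor in the membrane, had intervals below 1 in both genotypes as deposited, Atp5g1 with ratios of 0.777 and 0.74, Atp5g2 of 0.755 and 0.67, and Atp5g3 of 0.839 and 0.838. For Atp5g3 the ratios turned to 1.17 (1.05 to 1.3) and 1.13 (1.01 to 1.25) after median-ratio scaling. Atp5md, a small membrane subunit, had 83.5 FPKM untreated and 97.2 with LPS in WT, and 101 and 103 FPKM in KO. It was the highest in WT of the members of at least 5 FPKM and 50 counts, and its ratios of 1.16 (0.937 to 1.45) and 1.02 (0.826 to 1.25) had intervals that hold 1 (after median-ratio scaling 1.62 (1.31 to 2.01) and 1.37 (1.11 to 1.68)).

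The LPS response was compared between genotypes as the log2 fold in KO minus that in WT, with no test. The median difference was -0.070 over the 79 members and 0.052 over 10721 genes. Among members of at least 5 FPKM and 50 counts the lowest differences were those of Atp5e (-0.51), Ndufb10 (-0.50) and Ndufab1 (-0.49), and the highest those of Ndufb2 (0.54), Ndufa5 (0.28) and Atp5mpl (0.24). Atp5e, the epsilon subunit of the central stalk, had 173 FPKM untreated and 187 with LPS in WT, and 181 and 138 FPKM in KO. Only the KO LPS library stood apart, with LPS to NT ratios of 1.08 (0.94 to 1.25) in WT and 0.76 (0.65 to 0.888) in KO. Ndufab1, the mitochondrial acyl carrier protein that is also a complex I subunit, had 35.8 FPKM untreated and 32 with LPS in WT, and 36.8 and 23.1 FPKM in KO, and again KO LPS was lowest. Ndufb2, an accessory membrane-arm subunit, had 46.7 FPKM untreated and 29.1 with LPS in WT, and 32.3 and 29.6 FPKM in KO, so that here the WT NT library stood apart.

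Without LPS the subunit genes in KO were close to their WT levels. Of 79 members 0 were higher in KO by 2-fold or more and 0 lower (0.928% and 0.883% of 10990 genes), and 1, Cox6a2, was lower by 1.5-fold or more (3.06%). In KO NT 46 members were above WT NT (53.3% of all genes) and 33 below (46.2%), with a median of 0.025 against 0.018 for all genes. The interval lay above 1 for 11 members (14.1% of all genes) and below 1 for 7 (11.6%).

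With LPS, 0 of 79 were higher in KO by 2-fold or more and 0 lower (1.45% and 1.12% of 10375 genes), and 2, Cox6a2 and Cox7a1 (the latter from 6 and 3 counts), were lower by 1.5-fold or more (3.35%). In KO LPS 36 members were above WT LPS (62.1% of all genes) and 43 below (37.7%), with a median of -0.020 against 0.079 for all genes. After median-ratio scaling 23 were above and 56 below, and of all genes 5478 above and 4897 below. The interval lay above 1 for 2 members (21.2% of all genes) and below 1 for 7 (9.52%), or for 1 (15.1%) and 12 (13.1%) after median-ratio scaling.

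Both comparisons of genotype, which share no library, gave intervals on the same side of 1 for 4 members: above 1 for Cox7a2l and Atp5a1 (7.75% of all genes) and below 1 for Uqcrq and Cox6a2 (5.14%). Those above 1 in both were 18.2% of the 11 in NT and 100% of the 2 with LPS, and those below 1 were 28.6% of the 7 in each state. Over all genes these shares were 53.2% and 36.4% above 1, and 42.5% and 53.9% below 1. Of the neutrophil and precursor markers measured, 11 of 13 were above 0 in KO NT against WT NT and 13 of 14 with LPS (medians 0.56 and 0.33). Ly6g, a defining neutrophil marker, was at 0 in KO NT and at most 1.18 FPKM elsewhere, and S100a8, abundant in neutrophils and monocytes, had 122 FPKM untreated and 127 with LPS in WT, and 219 and 176 FPKM in KO. Fibroblast and lymphocyte markers, whose sums were far lower, also differed in sum between the genotypes. The part of all these cells in the subunit values was not tested.

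Cox6a2 (chr7:128205435-128206366), the heart and skeletal muscle form of complex IV subunit 6a, had 15.9 FPKM untreated and 12.8 with LPS in WT, and 7.84 and 6.73 FPKM in KO, from 59, 47, 29 and 23 counts. Both KO libraries were below both WT libraries. The KO to WT ratio of Cox6a2 was 0.492 (0.304 to 0.781) without LPS and 0.527 (0.305 to 0.885) with LPS. Its general counterpart Cox6a1 had 222 FPKM untreated and 169 with LPS in WT, and 200.4 and 171 FPKM in KO, with KO to WT ratios of 0.903 (0.805 to 1.01) and 1.01 (0.89 to 1.15). The nearest measured genes on either side of Cox6a2, Itgax at 54777 bases and 9130023H24Rik at 28084 bases, had KO to WT ratios of 1.58 (1.06 to 2.38) and 0.799 (0.592 to 1.08) without LPS and of 1.09 (0.727 to 1.63) and 1.69 (1.03 to 2.82) with LPS. No gene of at least 1 FPKM overlaps Cox6a2.

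Cox7a2l (chr17:83501917-83514333), a relative of subunit 7a known for its role in joining complexes III and IV into supercomplexes, was the highest member in KO against WT in both states. It had 128 FPKM untreated and 99.3 with LPS in WT, and 180.4 and 125 FPKM in KO, from 606 to 1107 counts. Within each state the KO library was the higher one. The ratios of Cox7a2l were 1.41 (1.28 to 1.54) without and 1.25 (1.12 to 1.4) with LPS, and after median-ratio scaling 1.39 (1.27 to 1.53) and 1.2 (1.07 to 1.34). The gene is known to give a long or a short protein depending on the mouse strain, which gene-level counts do not separate. The mice of both genotypes were of the strain named above, and the form that they carry was not examined. The higher RNA level of Cox7a2l in KO therefore does not show more of a protein that joins these complexes. Its relative Cox7a2 had KO to WT ratios of 0.987 (0.831 to 1.17) and 0.908 (0.748 to 1.1).

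Uqcrq (chr11:53427922-53430831), a small subunit of complex III, had 116 FPKM untreated and 105 with LPS in WT, and 84.4 and 77.5 FPKM in KO. Both KO libraries lay below both WT libraries, as for Cox6a2. The KO to WT ratios of Uqcrq were 0.73 (0.613 to 0.867) without LPS and 0.74 (0.614 to 0.891) with LPS. Uqcr11, another small complex III subunit, had 77.5 FPKM untreated and 54.5 with LPS in WT, and 59 and 45.5 FPKM in KO, with ratios of 0.761 (0.604 to 0.956) and 0.835 (0.634 to 1.1). Atp5a1 was barely above 1, at 1.06 (1.004 to 1.11) and 1.06 (1.00001 to 1.12), and its intervals held 1 after median-ratio scaling, at 1.04 (0.992 to 1.1) and 1.01 (0.953 to 1.07).

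Other members stood out in 1 state. Without LPS the next highest in KO were Uqcrfs1 at 1.34 (1.15 to 1.56), Atp5k, a small ATP synthase membrane subunit, at 1.32 (1.08 to 1.63) and Ndufa6, an accessory complex I subunit, at 1.32 (1.06 to 1.65). With LPS their ratios were 1.06 (0.905 to 1.24), 1.01 (0.801 to 1.27) and 1.12 (0.864 to 1.46). With LPS the next highest were Ndufs3 at 1.19 (0.942 to 1.51), Ndufa5 at 1.16 (0.813 to 1.66) and Ndufb7 at 1.13 (0.91 to 1.39), all with intervals that hold 1. Of members of at least 5 FPKM and 50 counts, the lowest with LPS was Ndufa12, an accessory complex I subunit, with 44.9 FPKM untreated and 40.9 with LPS in WT, and 39 and 27.2 FPKM in KO. Its KO LPS library stood apart from the other three, with a KO to WT ratio of 0.665 (0.493 to 0.892) with LPS and 0.869 (0.673 to 1.12) without.

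**Figure D3:**
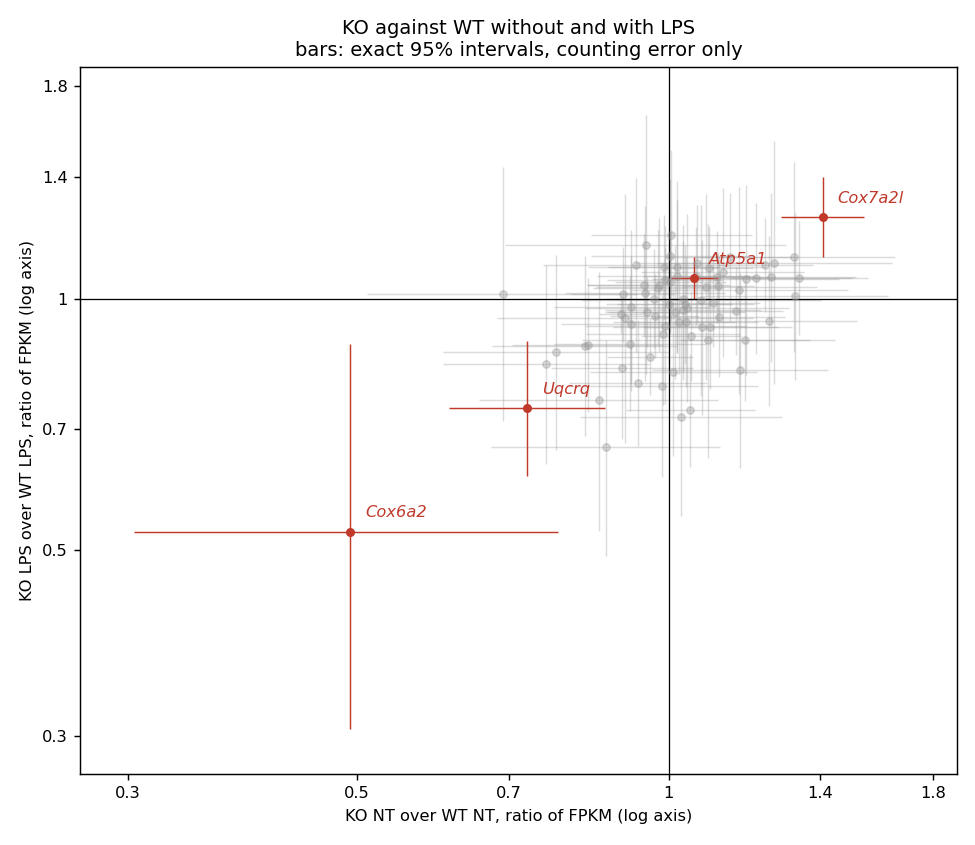
FPKM ratio of KO over WT without LPS (horizontal, log axis) and with LPS (vertical, log axis) for the subunit genes of at least 5 FPKM, with exact 95% intervals as bars. The 4 genes with both intervals on the same side of 1 are in red: Cox7a2l at 1.41 and 1.25, Atp5a1 at 1.06 and 1.06 (not after median-ratio scaling), Uqcrq at 0.73 and 0.74, and Cox6a2 at 0.492 and 0.527.

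Genes that build the complexes had lower medians with LPS than the subunits. Of all genes 17.2% in WT and 15.1% in KO were lower by 2-fold or more, and counts near these shares say nothing of a list. Of 17 complex I assembly factors, 5 were lower by as much in WT and 3 in KO, with medians of -0.63 and -0.62. Of 9 measured complex II and III assembly factors, 2 and 3 were (medians -0.59 and -0.72). Of 23 complex IV assembly factors, 4 and 5 were (medians -0.60 and -0.77). Of 6 genes for ATP synthase assembly or inhibition, Atpif1 being the inhibitor, 2 and 2 were (medians -0.75 and -0.73). In none of these lists was a gene 2-fold higher. After median-ratio scaling the medians of these 4 lists stayed below 0, at -0.17 to -0.31 in WT and -0.23 to -0.41 in KO, where the subunits had 0.19 and 0.026. These lists are of lower level: of the 17 complex I assembly factors 8 averaged under 5 FPKM and 8 from 5 to 20 FPKM, where all genes of 5 to 20 FPKM had medians of -0.56 in WT and -0.51 in KO. The part of level in the gap between subunits and assembly factors was not tested.

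Tmem126b, a complex I assembly factor, had 14.6 FPKM untreated and 4.29 with LPS in WT, and 18.7 and 2.42 FPKM in KO. Both LPS libraries were below both untreated ones, with ratios of 0.294 (0.171 to 0.483) in WT and 0.129 (0.0625 to 0.243) in KO. Tmem186, of the same assembly complex, had ratios of 0.146 (0.0791 to 0.253) and 0.209 (0.114 to 0.36). Uqcc3, a complex III assembly factor, had 0.286 (0.162 to 0.482) and 0.355 (0.199 to 0.604). In WT Taco1, an activator of the translation of a complex IV core subunit, had 0.161 (0.0701 to 0.328), and Atpaf1, a chaperone of the ATP synthase head, had 0.29 (0.152 to 0.523).

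Genes of cytochromes c and of coenzyme Q synthesis had values in both directions. Cyc1, which encodes cytochrome c1 of complex III, is counted among them, as the symbol rule does not name it. Of 15 genes for cytochromes c and coenzyme Q synthesis, 3 were lower by 2-fold or more in each genotype (17.2% and 15.1% of all genes), and 0 in WT and 1 in KO higher (6.41% and 6.61%), with medians of -0.39 and -0.50 (0.054 and -0.14 after median-ratio scaling). Cycs, which encodes cytochrome c, had 33 FPKM untreated and 44.4 with LPS in WT, and 24.4 and 31.6 FPKM in KO. It was highest in WT LPS, with LPS to NT ratios of 1.35 (1.21 to 1.5) in WT and 1.3 (1.14 to 1.48) in KO and KO to WT ratios of 0.74 (0.651 to 0.84) and 0.713 (0.636 to 0.798). Its counts were not whole, so that reads were shared with other genes and its values are uncertain. Coq5, a methyltransferase of coenzyme Q synthesis, had LPS to NT ratios of 0.319 (0.215 to 0.462) and 0.44 (0.308 to 0.621), while Coq10b, a coenzyme Q-binding protein, had 2.03 (1.57 to 2.62) and 2.24 (1.73 to 2.91), the first of which is under 2-fold once 1 is added to each FPKM.

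Among genes of fuel supply, 0 of 13 tricarboxylic acid cycle genes differed 2-fold with LPS, and their medians were -0.33 in WT and -0.21 in KO (0.12 and 0.19 after median-ratio scaling). A further list held 11 measured genes of pyruvate dehydrogenase, its kinases and phosphatases, and the mitochondrial pyruvate carriers. Of these, 2 were lower by 2-fold or more in each genotype, beside 17.2% and 15.1% of all genes (medians -0.55 and -0.35, or -0.13 and 0.038 after median-ratio scaling). In WT they were Pdp1 and Pdp2, phosphatases that activate the enzyme. Pdp1 had ratios of 0.347 (0.265 to 0.449) and 0.294 (0.222 to 0.386). The 10 mitochondrial carriers and porins had 0 members past 2-fold and medians of -0.27 and -0.34 (0.20 and 0.079 after median-ratio scaling). Of 17 glycolytic genes 1 in WT and 3 in KO were higher by 2-fold or more (6.41% and 6.61% of all genes) and 0 lower (medians -0.29 and -0.32, or 0.18 and 0.11 after median-ratio scaling). Slc2a1, the glucose transporter GLUT1, had ratios of 3.48 (2.94 to 4.14) and 4.08 (3.43 to 4.87). Pfkfb3, which makes an activator of phosphofructokinase, had 10.9 FPKM untreated and 21.5 with LPS in WT, and 10.1 and 71.1 FPKM in KO, and KO LPS was its highest library.

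Of 19 measured regulators of mitochondrial gene expression 4 in WT, and of 18 in KO 7, were lower by 2-fold or more (17.2% and 15.1% of all genes) and 0 higher, with medians of -0.45 and -0.57 (-0.12 and -0.20 after median-ratio scaling). Polrmt, the mitochondrial RNA polymerase, had 7.95 FPKM untreated and 1.83 with LPS in WT, and 8.06 and 1.21 FPKM in KO, with ratios of 0.23 (0.158 to 0.328) and 0.15 (0.0936 to 0.231). Tfam, which packages mitochondrial DNA and starts its transcription, had 4.91 FPKM untreated and 2.16 with LPS in WT, and 5.82 and 1.89 FPKM in KO. For both genes the LPS libraries were below the untreated ones. Of 78 mitochondrial ribosomal protein genes 10 were lower by 2-fold or more in each genotype, below the 17.2% and 15.1% of all genes (medians -0.57 and -0.53, or -0.13 and -0.14 after median-ratio scaling). Of 23 mitochondrial import genes, 5 and 2 were (medians -0.53 and -0.37, or -0.089 and -0.0070 after median-ratio scaling). The 79 measured cytosolic ribosomal protein genes had 0 members past 2-fold and medians of -0.13 and -0.25 (0.35 and 0.18 after median-ratio scaling).

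**Figure D4:**
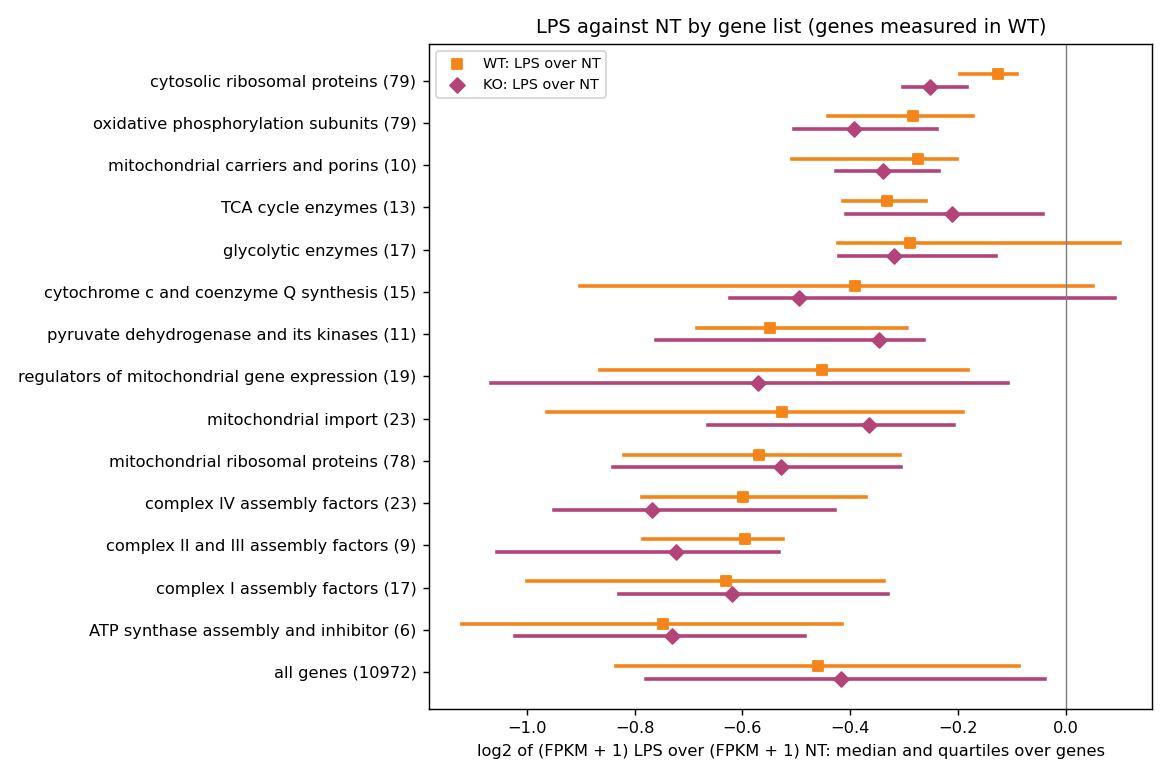
Median (marker) and quartiles (bar) over genes of log2 of (FPKM + 1) with LPS over (FPKM + 1) without, as deposited, for each gene list, with the number of genes measured in WT in brackets. The 4 lists of assembly genes, with the inhibitor Atpif1 in that of ATP synthase, have medians from -0.59 to -0.77. The subunits have -0.28 in WT and -0.39 in KO, and 0.19 and 0.026 after median-ratio scaling.

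The choice of members by symbol did not use their promoters, and these were searched for motifs on both strands. Windows of 300 bases, from 250 before to 50 after each RefSeq start on GRCm38.p6, were found for 67 of the 82 members (72 windows). The NRF1 motif (GCGCA, then any base, then GCGC), bound by nuclear respiratory factor 1, lay in 25% of the members' windows and in 6.38% of 21263 windows of protein-coding genes. The ETS motif CCGGAAG, bound by GABP (nuclear respiratory factor 2), lay in 23.6% and 11.6%, the YY1 motif ATGGCGGC in 9.72% and 3.02%, and the cyclic AMP response element TGACGTCA in 5.56% and 2.23%. The CCAAT box, CCAAT, lay in 41.7% and 38.2%, and the E-box CACGTG in 9.72% and 7.84%. Median GC content was 58% in the members' windows and 56.3% in those of protein-coding genes, and 0 matches of different motifs overlapped in the members' windows. The windows of protein-coding genes were not limited to genes expressed in these libraries, and the part of expression in these shares was not tested. A match describes the letters in the window and does not show binding.

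All 7 windows with the YY1 motif belonged to complex I genes, 20% of that complex's 35 windows. Windows of the same gene can overlap, and by gene these were 6 of 33 (18.2%), as overlapping windows of Ndufa7 hold the same site. The NRF1 motif lay in 6 of 18 complex V windows, 8 of 35 in complex I, 2 of 3 in complex II, 1 of 5 in complex III and 1 of 11 in complex IV. Those of complex I came from 7 genes, with the same Ndufa5 site counted in overlapping windows. Among mitochondrial ribosomal protein genes 17.3% of windows held NRF1 and 34.7% the ETS motif, and among cytosolic ribosomal protein genes 7.04% and 38.0%. The 17 measured members with the NRF1 motif had a median fold with LPS of -0.37 in WT and -0.43 in KO, and the 49 without -0.27 and -0.39. The 17 with the ETS motif had -0.27 and -0.38, and the 49 without -0.32 and -0.41. Their median level in WT NT was 91 FPKM with the ETS motif and 54.7 FPKM without.

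The 250 bases before the start, 5′ to 3′ on the gene's strand, are shown for Atp5h, Cox6a1 and Sdhd, the 3 members in which both motifs lay wholly before the start, and for Ndufs3, which had one of the lowest LPS ratios. Capitals mark the NRF1 motif and the ETS motif, which reads CCGGAAG or, on the other strand, CTTCCGG. All 4 genes lie on the minus strand of GRCm38.p6 and the sequences are from RefSeq. The Atp5h window is chr11:115419920-115420169, that of Cox6a1 is chr5:115348959-115349208, that of Sdhd is chr9:50603850-50604099 and that of Ndufs3 is chr2:90904722-90904971.
Atp5h: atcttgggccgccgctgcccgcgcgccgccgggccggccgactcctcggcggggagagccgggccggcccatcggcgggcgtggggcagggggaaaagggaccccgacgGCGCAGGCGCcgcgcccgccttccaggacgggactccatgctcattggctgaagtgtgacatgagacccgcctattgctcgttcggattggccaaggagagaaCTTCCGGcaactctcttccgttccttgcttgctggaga
Cox6a1: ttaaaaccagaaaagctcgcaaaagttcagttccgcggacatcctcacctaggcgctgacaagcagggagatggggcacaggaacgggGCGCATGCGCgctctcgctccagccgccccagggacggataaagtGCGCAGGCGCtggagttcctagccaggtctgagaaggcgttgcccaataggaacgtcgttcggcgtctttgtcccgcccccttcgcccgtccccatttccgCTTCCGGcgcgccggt
Sdhd: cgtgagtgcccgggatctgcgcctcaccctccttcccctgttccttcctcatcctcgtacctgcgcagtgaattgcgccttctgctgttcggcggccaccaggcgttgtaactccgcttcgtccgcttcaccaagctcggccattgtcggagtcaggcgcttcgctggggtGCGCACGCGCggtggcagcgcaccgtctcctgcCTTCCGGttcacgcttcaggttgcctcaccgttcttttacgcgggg
Ndufs3: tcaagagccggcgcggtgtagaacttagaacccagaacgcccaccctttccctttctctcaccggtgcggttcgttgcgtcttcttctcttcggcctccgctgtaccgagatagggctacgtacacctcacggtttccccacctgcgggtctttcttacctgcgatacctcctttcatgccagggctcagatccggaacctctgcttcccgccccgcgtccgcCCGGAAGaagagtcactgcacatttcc

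The first base of the ETS motif lies at -38 from the start in Atp5h, -16 in Cox6a1, -46 in Sdhd and -27 in Ndufs3. Atp5h, a peripheral stalk subunit of ATP synthase, had 109 FPKM untreated and 96 with LPS in WT, and 119 and 89 FPKM in KO, and Sdhd had 66.2 FPKM untreated and 50.9 with LPS in WT, and 65.6 and 53.8 FPKM in KO. Both genes were lower in the LPS library of each genotype as deposited. Nrf1, which encodes nuclear respiratory factor 1, had 7.84 FPKM untreated and 3.99 with LPS in WT, and 6.93 and 4.97 FPKM in KO. Its LPS to NT ratios as deposited were 0.509 (0.381 to 0.674) and 0.717 (0.543 to 0.944). Gabpa, the DNA-binding subunit of GABP, had 10.8 FPKM untreated and 14.1 with LPS in WT, and 11.7 and 14.4 FPKM in KO. The ratios of Gabpa as deposited were 1.31 (1.12 to 1.52) and 1.23 (1.06 to 1.43). Median-ratio scaling shifts the ratios of both genes upwards, as it does for the members.

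**Figure D5:**
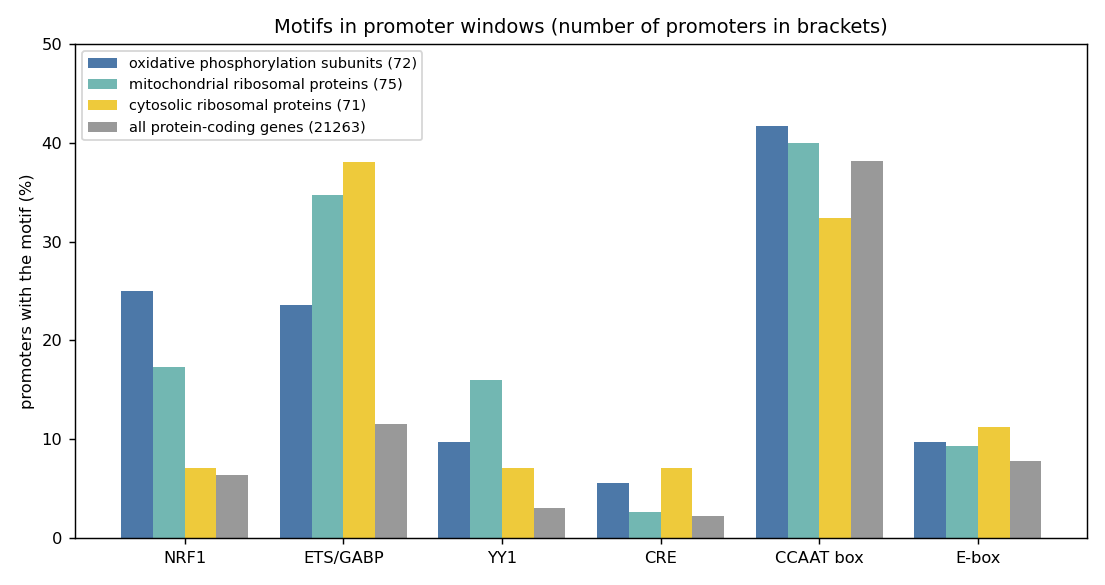
Share of promoter windows of 300 bases (%) that hold each motif on either strand, for oxidative phosphorylation subunits, mitochondrial and cytosolic ribosomal proteins and all protein-coding genes, with the number of windows in brackets. The NRF1 motif lies in 25% of subunit windows and 6.38% of all, and the CCAAT box in 41.7% and 38.2%.

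The spans of 16 members overlap another gene of at least 1 FPKM, among them Cox7a2 with Tmem30a and Atp5j with Gabpa. Without strand in the counting, reads in the shared bases cannot be told apart, and the setting is not given in the sources used here. Ndufs7, Ndufs3, Ndufb10, Cox6a2, Cox7a2l and Uqcrq had no such overlap. Expected counts of Cox7c, Ndufa7 and Ndufs1 were not whole in every library, so that some of their reads were shared with other genes, and the other 79 members had whole counts.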

How the data were processed

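Total RNA of the 4 libraries was sequenced on Illumina HiSeq instruments, as the labels state. Bowtie, RSEM and the genome mm10 are named in the submitters' processing notes; versions, annotation, strand setting and read filters: not given in the sources used here. The deposited expected count is the authors' estimate of a gene's reads, which need not be whole, and the deposited FPKM is the authors' value per gene length and library size. A gene missing from a table was set to 0. Symbols and coordinates came from RefSeq (GRCm38.p6), which matched 15897 of 15935 identifiers.

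A fold is the log2 of (FPKM + 1) in one library over (FPKM + 1) in another. A gene entered a comparison when either library had 1 FPKM or more. Intervals are exact (Clopper-Pearson, 95%) on expected counts rounded to whole numbers, and the floor is 3 counts per library. With 1 library per group nothing was tested, and the labels do not say whether a library pools animals. Computations used python 3.11.15, numpy 2.4.6, pandas 2.3.3 and scipy 1.17.1 and were tested on simulated counts.

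The members and gene lists were chosen with earlier results of these data known. Named members were the 4 highest and 4 lowest folds per comparison among those of at least 5 FPKM and 50 counts, the 3 highest and 3 lowest response differences, the highest of each complex, the Sdh genes, fixed catalytic subunits and isoform pairs, and up to 3 genes per pathway list. The c-ring genes, Cox7c, Ndufa7, Atp5h, Cox6a2 with LPS, Coq10b in WT, Tmem186 and Uqcc3 as pairs, Cycs with LPS, Tfam in WT, Nrf1, Gabpa, S100a8 and the neighbouring and overlapping genes were chosen after their values were seen, as were the splits by level and length. Alternatives were other pseudocounts, filters, scalings and fold limits, CPM, one length per gene, and members restricted by counts, whole counts or length. One member is counted among the others but not reported here by name.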

Additional observations from a re-analysis of the deposited data

How the results depend on the processing

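No paired analysis was possible because each group has 1 library and the labels give no replicate numbers. Under the alternatives 151 summary values moved little and 16 moved. Those counted as moving little include medians near 0 whose sign or size changed. Between genotypes given LPS the members' median was -0.020 as deposited. It was 0.025 with libraries scaled to equal FPKM sums and -0.089 after median-ratio scaling. With equal sums the median difference of LPS responses was -0.014, against -0.070 as deposited. Median-ratio scaling turned the sign of the members' median with LPS, to 0.19 in WT and 0.026 in KO (-0.28 and -0.39 as deposited). It gave intervals above 1 for 29 members in WT and 15 in KO (29.2% and 28.6% of all genes), and below 1 for 2 and 3 (29.7% and 27.9%). It left 0 members 2-fold lower with LPS in KO. Between genotypes given LPS, it gave 1 interval above 1 and 12 below 1. The interval counts under this scaling were chosen after seeing the data. A pseudocount of 5 FPKM or a 3-fold limit also left 0 members lower with LPS in KO. At 1.5-fold 7 members were lower with LPS in WT, 12 in KO, 1 in KO against WT without LPS and 2 with LPS. A pseudocount of 0.1 FPKM made 1 member, Cox6a2, 2-fold lower in KO without LPS. Of the values of named members, 15 moved and 177 did not, the 15 all under median-ratio scaling and with LPS. Members had 23 to 3414 counts per library among those of at least 5 FPKM, and the median half-width of their intervals was 0.24 to 0.27 on the log2 scale in the 4 comparisons. Without replicates, spread between animals is not measured.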
